A study of Arabidopsis thaliana with 36 samples.

Results

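ivd1-2, an Arabidopsis thaliana line named for a lesion in the gene IVD, was compared with both other genotypes of the study after 24 h of unbroken darkness. The libraries were those whose titles carry the tag D1: 2 of ivd1-2, 2 of the wild type (WT, stock CS60000) and 2 of hml1-2, a line named for a lesion in HML1. This sets 2 libraries against 4, out of 36 in the series, which covers the same 3 genotypes before treatment (0 h), when kept dark for 6, 24, 48 or 72 h, and when left in the normal cycle for 72 h. Each library gives reads counted per gene from total RNA of rosette leaves 9 to 12, taken from soil-grown plants aged 5 weeks and raised with 8 h of light and 16 h of dark a day. The mutant lines are given by allele name alone, with no second allele and no rescued line, so each genotype is 1 line. The libraries of a group are duplicates by their labels, which do not say that they came from separate plants. The p-values therefore measure the spread between these samples, which may be technical.

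IVD encodes isovaleryl-CoA dehydrogenase, a mitochondrial enzyme of leucine breakdown that passes electrons through the electron transfer flavoprotein (ETF) and its ubiquinone oxidoreductase to the respiratory chain. HML1 encodes hydroxymethylglutaryl-CoA lyase, which acts at the end of the same pathway. In leaves held in darkness sugars and starch run out, and amino acids released from protein, the branched-chain ones among them, are burned instead.

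The 6 libraries held 25033762 to 49398596 counts in genes. Across the 19457 genes tested, the log2 CPM (counts scaled to library size) of duplicates had a Pearson correlation of 0.981 in ivd1-2, 0.986 in WT and 0.986 in hml1-2, a description over genes that are not independent. Leaf photosynthesis transcripts were abundant in all 6 libraries, for example LHCB3, a light-harvesting protein of photosystem II, at 272.5 and 332.3 CPM in ivd1-2 and 440.6 to 511.5 in the others. Of the markers of other tissues, SHR and CASP2, the 2 root markers measured, were lower in both ivd1-2 libraries than in the 4 others. Their summed levels were 17.2 and 19.8 CPM against 22.6 to 41.8. Also apart below were 2 of 4 phloem markers and 1 marker each of guard cell and epidermis, where 15.5% of all genes tested were. A guard cell marker lay apart above, where 17.2% were. The summed markers of flower, guard cell, phloem and epidermis overlapped between ivd1-2 and the others, no marker passed the test, and the flower genes AP1 and AP3 had too few counts to be tested. Whether tissue makeup played a part in the results was not tested, and in bulk leaves fewer cells of a type cannot be told apart from less RNA per cell.

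At 24 h of darkness 133 genes rose and 72 fell in ivd1-2 relative to the mean of WT and hml1-2, which is 1.05% of the genes tested (0.684% higher and 0.37% lower). The threshold was an adjusted p of 0.05 in edgeR's quasi-likelihood test, fitted to all 36 libraries. The median log2 difference was 1.07 among the rises and -0.93 among the falls, against 0.01 over all genes. 73 rises exceeded 1 on the log2 scale and 30 falls lay below -1. The number rested on both ivd1-2 libraries: without the first of them 28 genes passed, without the second 48, and without any 1 of the 4 others 96 to 104. Without the first ivd1-2 library of 72 h of darkness, which stands apart from its duplicate and enters the shared estimate of the spread, 233 rose and 132 fell, all 205 genes among them. 21 of the 205 genes, 14 rises and 7 falls, passed in all 6 of these reduced fits, and 66 in none. Both ivd1-2 libraries lay above all 4 others in 133 of the 133 rises and below them in 71 of the 72 falls, where 17.2% of all genes tested lay above and 15.5% below. The exception is ILA, described further on. The genes were chosen by a test of these same 6 libraries, so the separation largely follows from the choice and is a description.

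**Figure D1:**
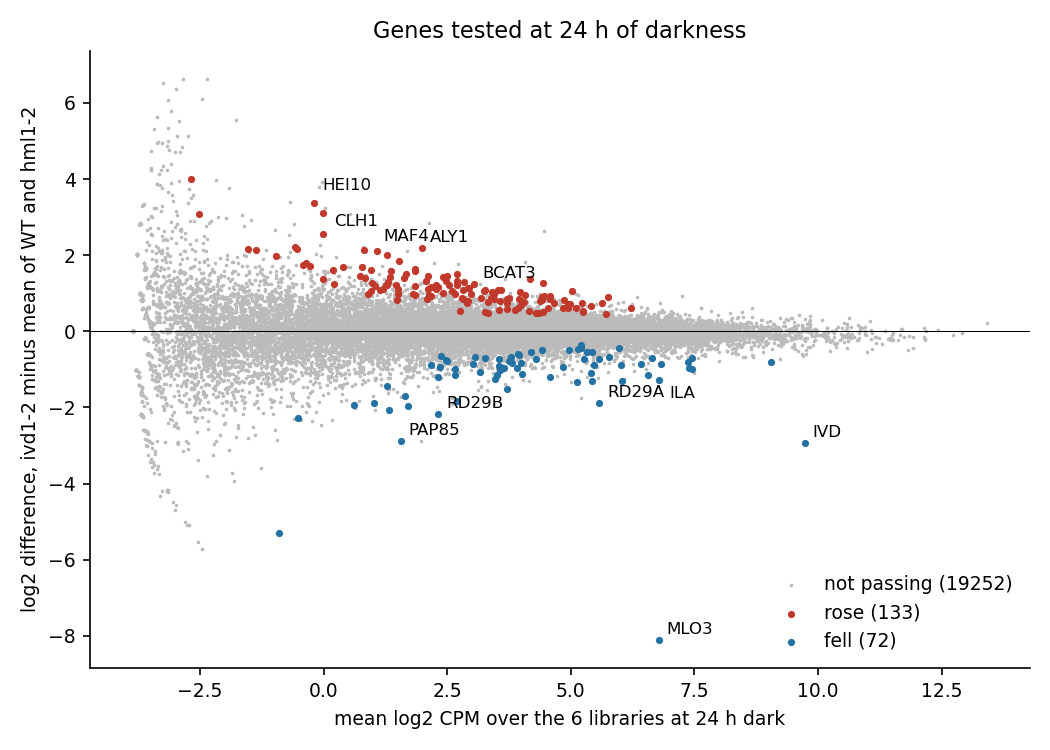
Each point is a gene at 24 h of darkness, placed by its mean log2 CPM over the 6 libraries and by the log2 difference of ivd1-2 from the mean of WT and hml1-2. The 133 rises (red) lie mostly at low and middle levels, while MLO3 at -8.10 and IVD at -2.93 stand below the other falls of middle and high level.

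The IVD transcript was lower in the line named for it. IVD was at 211.1 and 227.8 CPM in ivd1-2, at 1568 and 1824 in WT, and at 1506 and 1795 in hml1-2. Both ivd1-2 libraries thus lay far below the 4 others, which overlapped each other, at 13.1% of their level (log2 -2.93, SE 0.324, edgeR adjusted p = 7.04e-05). HML1 was at 101.1 and 117.8 CPM in ivd1-2, at 117 and 132.8 in WT, and at 59.7 and 65.5 in hml1-2. ivd1-2 overlapped WT and lay above hml1-2. The difference from both pooled did not pass (log2 0.31, edgeR adjusted p = 0.364), while HML1 was higher in ivd1-2 than in hml1-2 (log2 0.81, adjusted p = 0.0269), the line named for that gene.

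The largest difference at 24 h was not in IVD but in the gene beside it. MLO3, a member of the MLO family of seven-transmembrane proteins, some of which are known from powdery mildew susceptibility, was at 2.53 and 2.64 CPM in ivd1-2. It was at 724.8 and 761.3 CPM in WT and at 541.8 and 819.8 in hml1-2. ivd1-2 was therefore at 0.364% of the others (log2 -8.10, SE 0.656, edgeR adjusted p = 8.41e-07). MLO3 is read on the + strand and IVD on the - strand, and their annotated 3′ ends lie 81 bases apart in the TAIR10.1 assembly. The stretch between them is shown because it is all that separates the genes with the first and second largest of the 12 falls:

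MLO3 to IVD, + strand, chr3:16621371-16621451: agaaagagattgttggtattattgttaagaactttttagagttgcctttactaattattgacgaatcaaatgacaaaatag

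It holds 27.2% G and C and no AATAAA, the consensus of the polyadenylation signal, on either strand. The search covered this stretch only and not the ends of the genes themselves, so it does not show how either transcript ends. Nothing states how the authors' counting treated strand, and an antisense gene, AT3G07105, overlaps MLO3, so reads of MLO3 cannot be separated from reads of that gene.

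MLO3 and IVD differed in their course over the conditions. In WT and hml1-2, MLO3 was at 1.86 to 9.89 CPM at 0 h, 101 to 206 after 6 h of darkness, 541.8 to 819.8 after 24 h and 445.9 to 583.6 after 72 h, and 3.25 to 6.84 after 72 h in light. In ivd1-2 it stayed between 1.59 and 5.23 CPM in all 12 libraries, whether dark or light. ivd1-2 and the others overlapped at 0 h and in light, and lay apart at every dark time. IVD itself was lower in ivd1-2 in all 6 conditions, yet it was at 3.16 and 6.23 CPM in ivd1-2 at 0 h and at 211.1 and 227.8 after 24 h of darkness, so the level in the mutant was not fixed.

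Of the 5 annotated protein-coding genes on each side of IVD, MLO3 among them, 4 had too few counts to be tested. AT3G45260, a C2H2 zinc finger gene 22640 bases away, fell: 53.8 and 62.0 CPM in ivd1-2 against 92.7 to 115.5 (log2 -0.87, edgeR adjusted p = 0.00915). The next gene on the other side, AT3G45310, was at 21.4 and 24.7 CPM against 18.3 to 20.5 and did not pass (log2 0.23, adjusted p = 0.848). AT3G45330, AT3G45390 and AT3G45400 did not pass either, with adjusted p of 0.953, 0.958 and 0.988, and AT3G45330 had 5 counts in all 6 libraries together.

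ILA differed from WT and not from hml1-2. This gene, ILITYHIA, encodes a HEAT-repeat protein that acts with the kinase GCN2 in translation control and immunity. It was at 59.4 and 63.7 CPM in ivd1-2 and at 59.8 and 62.0 in hml1-2, but at 348.4 and 373.5 in WT. Both mutants lay far below WT and overlapped each other. An antisense gene, AT1G64795, overlaps ILA, and with the strand setting not given its reads cannot be separated from those of ILA. The pooled difference passed (log2 -1.27, edgeR adjusted p = 0.000399), with log2 -2.55 against WT (adjusted p = 2.38e-07) and 0.02 against hml1-2 (adjusted p = 1). hml1-2 itself differed from WT in ILA (log2 -2.57, adjusted p = 2.18e-07) and HML1 (log2 -1, adjusted p = 0.0186), and in no other gene at 24 h in edgeR's test (0.0103% of those tested), while DESeq2 called 8 genes higher and 3 lower. AT5G11330, a FAD-dependent oxidoreductase gene by its annotation, ran the other way without passing: 65.9 and 69.3 CPM in ivd1-2, 67.1 and 67.5 in hml1-2, and 37.9 and 44.5 in WT (pooled log2 0.36, adjusted p = 0.291).

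Against each genotype by itself, 49 genes rose and 46 fell relative to WT (0.488% of those tested, 0.252% higher and 0.236% lower), and 19 rose and 13 fell relative to hml1-2 (0.164%, 0.0977% higher and 0.0668% lower). These comparisons share the 2 ivd1-2 libraries. Of the 205 genes of the pooled comparison, 30 passed against both, 65 against WT alone, none against hml1-2 alone, and 110 against neither. The median of the 133 rises was 1.1 against WT and 0.98 against hml1-2, and that of the 72 falls -0.97 and -0.86. ILA was the 1 gene of the 205 whose sign differed between them. A test of whether the differences from WT and from hml1-2 are unequal is the comparison of hml1-2 with WT, which held ILA and HML1.

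**Figure D2:**
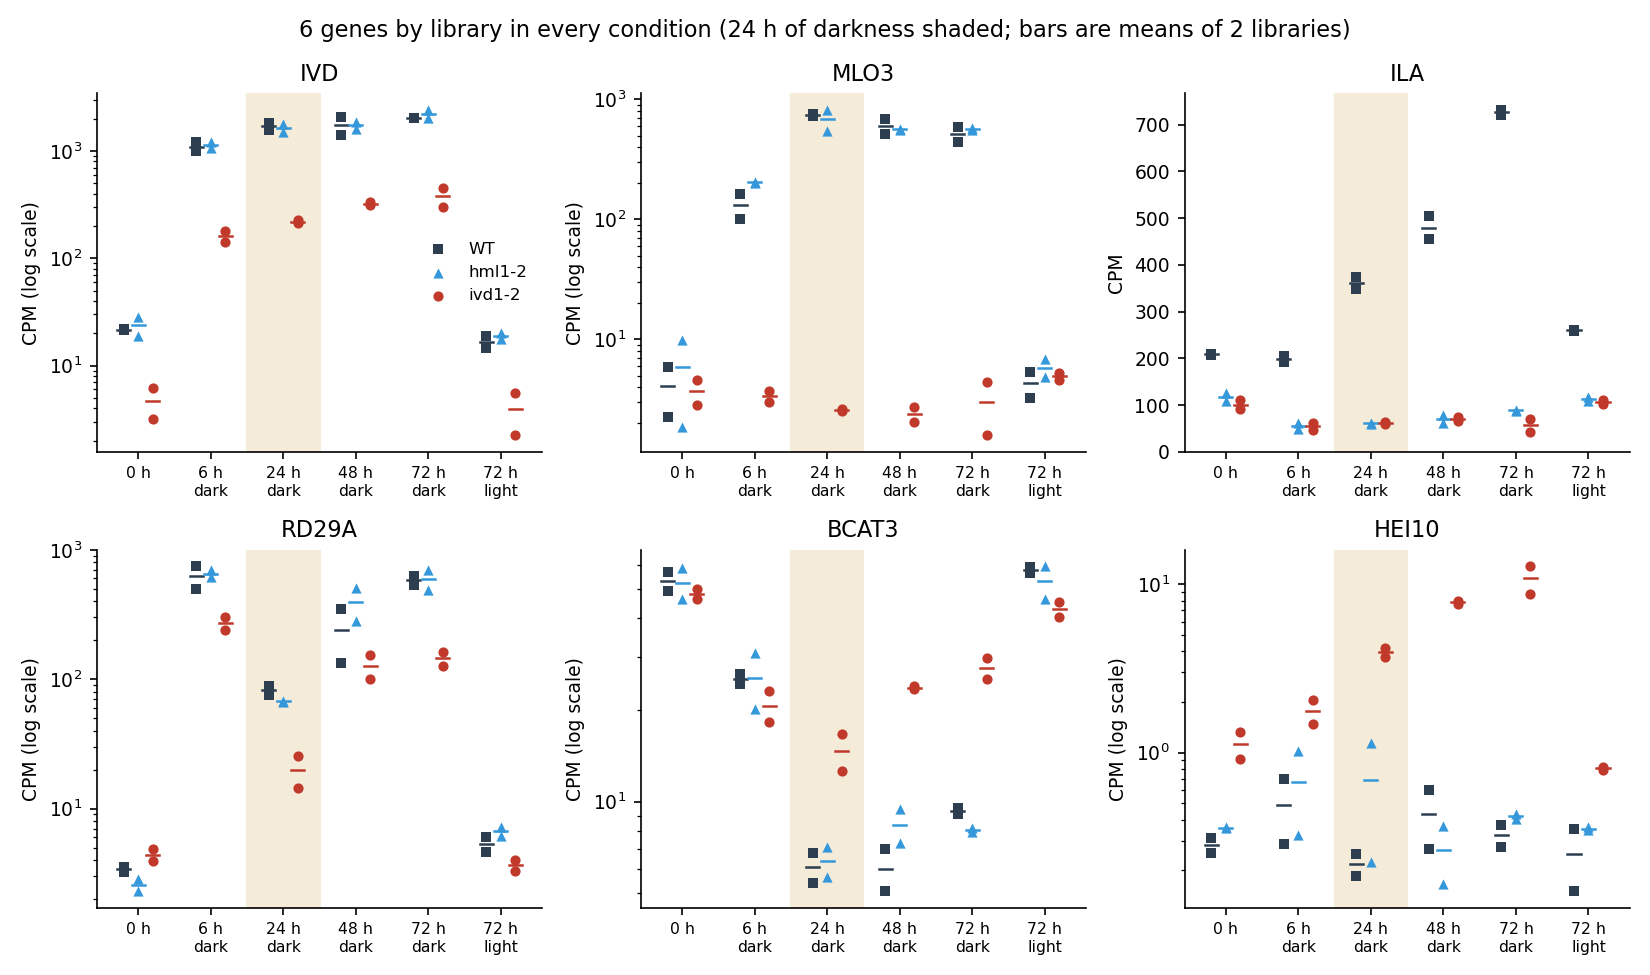
CPM of 6 genes in all 36 libraries, by condition on the x axis and genotype by colour, on log y axes except for ILA; bars are means of 2 libraries. MLO3 in ivd1-2 is at most 5.23 CPM where the others reach 819.8 at 24 h, ILA is low in both mutants, BCAT3 lies apart above the others from 24 h of darkness on, and HEI10 lies apart above them in every condition.

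Genes of leucine, isoleucine and valine breakdown other than IVD did not pass. Of 22 measured, IVD fell and none rose, where 0.37% of all genes fell and 0.684% rose. The list's median log2 was -0.05, against 0.01 for all genes. MCCB, a subunit of methylcrotonyl-CoA carboxylase, the step after IVD, was at 588.7 and 613.1 CPM against 702.5 to 913.8 (log2 -0.47, edgeR adjusted p = 0.562). Its partner subunit MCCA was at 2052 and 2215 CPM against 1888 to 2418 (log2 -0.05, adjusted p = 0.997). ETFQO, the oxidoreductase that takes electrons from ETF, was at 302.9 and 357 CPM against 310.8 to 380.5 (log2 -0.11, adjusted p = 0.959), so MCCA and ETFQO overlapped between genotypes and MCCB lay apart below. D2HGDH, which oxidises 2-hydroxyglutarate and also feeds ETF, was at 39.99 and 50.89 CPM against 56.9 to 62.6 (log2 -0.40, adjusted p = 0.237). None of 25 genes of other amino acid breakdown passed, where 1.05% of all genes did, and their median was -0.06.

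In branched-chain amino acid synthesis BCAT3 rose in ivd1-2. BCAT3, the plastid aminotransferase of leucine synthesis and of methionine-derived glucosinolates, was at 12.6 and 16.7 CPM in ivd1-2, 5.39 and 6.77 in WT and 5.655 and 7.1 in hml1-2. The difference was larger than the spread (log2 1.24, SE 0.178, edgeR adjusted p = 0.000805), and passed in all 6 reduced fits. It was the 1 of 14 measured members to pass, where 1.05% of all genes did, and the list median was 0.34. 13 of the 14 were higher in ivd1-2, and 9 lay apart above the 4 others, where 17.2% of all genes did. Among them, OMR1, threonine deaminase of isoleucine synthesis, was at 4.27 and 5.50 CPM against 2.16 to 3.26 (log2 0.90, adjusted p = 0.114). IMD2, an isopropylmalate dehydrogenase of leucine synthesis, was at 12.48 and 13.95 CPM against 7.35 to 8.85 (log2 0.66, adjusted p = 0.236). CSR1, the catalytic subunit of acetolactate synthase, was at 1054 and 1155 CPM against 750.3 to 914.3 (log2 0.40, adjusted p = 0.771). OMR1 and IMD2 passed in the same comparison at 48 h, with log2 1.3 (adjusted p = 0.00507) and 0.87 (adjusted p = 0.035), where the levels come from other libraries than at 24 h.

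BCAT3 was lower at later dark times in WT and hml1-2, and less so in ivd1-2. At 0 h it was at 46.52 and 49.96 CPM in ivd1-2 and 46.5 to 58.5 in the others, and at 6 h at 18.3 and 23.1 against 20.2 to 30.7. The genotypes overlapped at both times. At 48 h ivd1-2 was at 23.5 and 23.9 CPM and the others at 5.07 to 9.49, and at 72 h of darkness at 25.3 and 29.7 against 7.94 to 9.50. The change of its difference from 6 to 24 h did not pass (adjusted p = 0.114).

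Further genes of amino acid synthesis were among the rises, picked singly from the 205 after the values were seen. Unchanged genes of their pathways were not counted, and 0.684% of all genes tested rose. AK-HSDH II, aspartate kinase and homoserine dehydrogenase in 1 protein, was at 24.8 and 27.8 CPM against 12.2 to 15.5 (log2 0.96, SE 0.159, edgeR adjusted p = 0.00318). AT1G14810, a semialdehyde dehydrogenase of the same aspartate pathway, was at 33.0 and 34.6 CPM against 16.5 to 20.2 (log2 0.93, adjusted p = 0.0212). In tryptophan synthesis ASA2, an anthranilate synthase, rose by 1.23 and PAI3, a phosphoribosylanthranilate isomerase, by 1.01 (adjusted p = 0.0376 and 0.0401). AT1G14810 overlaps genes on the opposite strand, and PAI3 has close copies among which reads could be split. AK-HSDH II passed in 5 of the 6 reduced fits, ASA2 in 1, and AT1G14810 and PAI3 in none.

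The 12 largest rises with at least 5 CPM belong to varied functions. ALY1, ALWAYS EARLY 1, a homologue of the LIN-9 subunit of cell-cycle complexes in animals, was at 10.2 and 11.4 CPM against 1.704 to 2.811 (log2 2.19, SE 0.333, edgeR adjusted p = 0.00148). MAF4, a MADS-box repressor of flowering, was at 5.23 and 5.64 CPM against 0.775 to 1.63 (log2 2.1, SE 0.47, adjusted p = 0.0294). EHD2, an EPS15-homology protein of endocytic traffic, was at 4.85 and 7.22 CPM against 1.23 to 1.95 (log2 2.01, adjusted p = 0.00471). In each of these the ivd1-2 libraries lay more than their own gap above the highest other library, but the levels are low and MAF4 passed in none of the reduced fits.

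The other 9 were UKL2, a uridine kinase-like gene (log2 1.84), AT2G45290, a transketolase (1.63), MEI1, a BRCT-domain gene needed in meiosis (1.59), and AT5G14140, a zinc finger gene (1.58). They continued with IMPA-6, an importin alpha (1.52), MIM, the SMC6 subunit of a DNA repair complex (1.5), GYRB2, a DNA gyrase subunit (1.46), AT3G54970 (1.46) and AT3G59670 (1.42). Their edgeR adjusted p ran from 0.000538 for GYRB2 to 0.0318 for AT3G59670. MEI1, AT5G14140 and MIM passed in all 6 reduced fits, GYRB2 and AT3G54970 in 5, IMPA-6 in 2, and UKL2, AT2G45290 and AT3G59670 in none. MEI1 overlaps another gene on its own strand, AT1G77310, which also rose, by 1.43 (adjusted p = 0.0201), so the 2 are less certain as separate calls, and GYRB2 and MIM also overlap other genes.

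**Figure D3:**
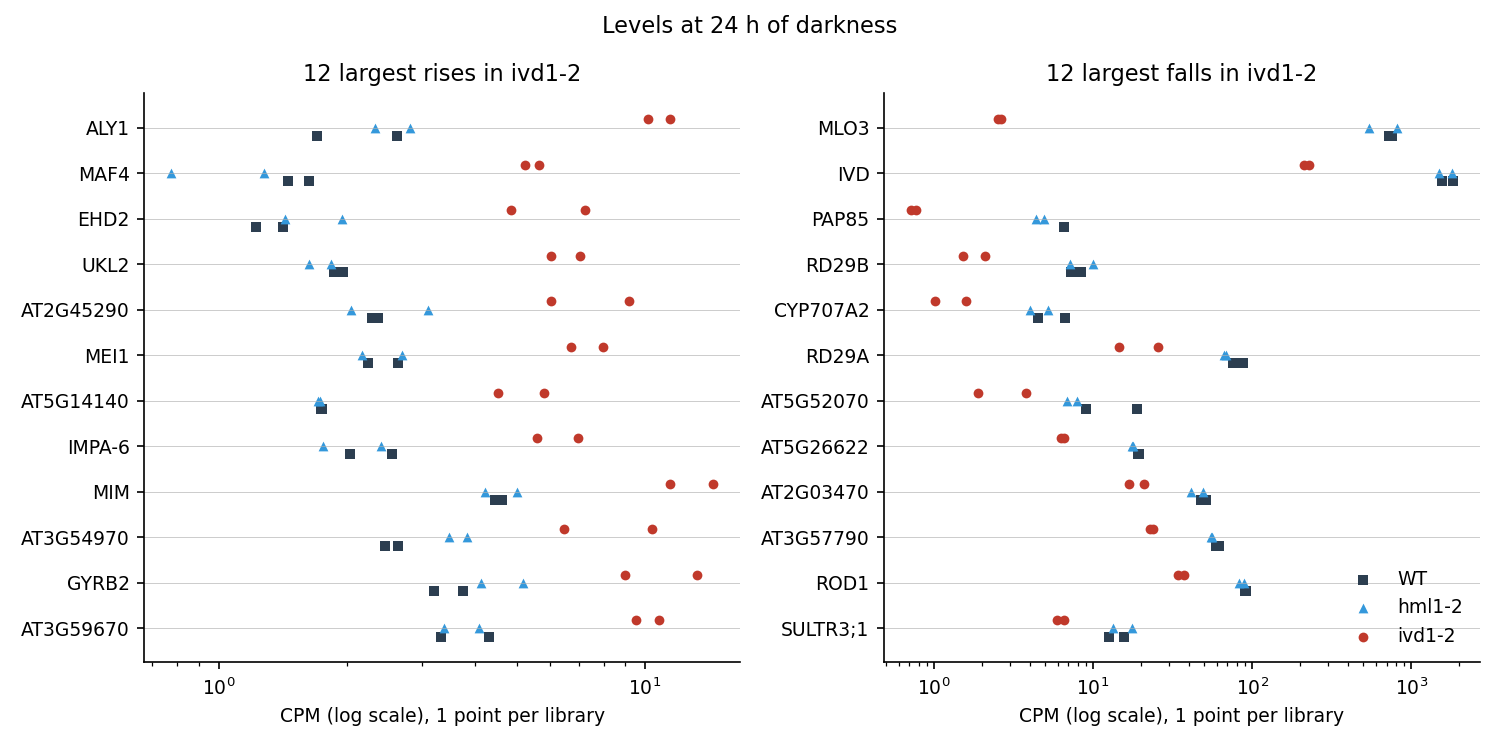
CPM at 24 h of darkness (log x axis, 1 point per library, 2 per genotype) of the 12 largest rises and 12 largest falls. In all 24 genes both ivd1-2 points lie outside the range of the 4 others, as the rule for choosing them required.

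The families that follow, up to the chaperonins, were picked by annotation after their members' values were seen, and they have no test. The meiosis and repair genes, emb2411, E2F1 and HD2C belong to no such family. They were picked singly from the 205 after their values were seen, and unchanged genes of their kind were not counted. The families' counts stand beside 0.684% of all genes tested that rose and 0.37% that fell. Of all genes, 17.2% lay apart above the others and 15.5% apart below. The anaphase-promoting complex, a ubiquitin ligase that drives exit from mitosis, had 10 genes tested by annotation, of which 4 rose (0.684% of all genes did) and none fell. AT1G06590, annotated as a subunit of the complex, was at 15.5 and 16.0 CPM against 7.09 to 7.97 (log2 1.08, SE 0.14, edgeR adjusted p = 0.000399). APC6 was at 1.39 and 1.93 CPM against 0.306 to 0.416 (log2 2.17, adjusted p = 0.000647), APC8 at 2.74 and 4.14 against 1.27 to 1.63 (1.28, 0.0219) and APC7 at 17.8 and 18.8 against 10.1 to 12.1 (0.73, 0.00915). The groups did not overlap in these 4, nor in APC4, which did not pass (log2 0.46, adjusted p = 0.256). APC2 and APC10 were lower at log2 -0.20 and -0.35 without passing, and the median of the 10 was 0.32. APC6, APC7 and APC8 each overlap a gene on the opposite strand.

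DNA polymerase delta, a replicative polymerase, had 3 genes tested and all 3 lay above the 4 others. Its catalytic subunit AT5G63960 was at 6.93 and 7.31 CPM against 3.02 to 3.68 (log2 1.1, edgeR adjusted p = 0.0178), and POLD4 at 14.7 and 16.7 against 7.52 to 10.3 (log2 0.87, adjusted p = 0.00218). POLD2, at 3.40 and 3.48 CPM against 1.79 to 2.29, did not pass (log2 0.70, adjusted p = 0.325). The helicase gene emb2411, annotated for DNA replication, was at 4.29 and 5.04 CPM against 0.582 to 1.27 (log2 2.13, adjusted p = 0.000399). E2F1, a transcription factor of S phase, rose by 1.33 (adjusted p = 0.0209), with 9.21 and 11.3 CPM against 3.55 to 4.61. AT5G63960 and emb2411 overlap genes on the opposite strand.

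The meiosis and repair genes picked from the 205 moved in both directions. PRD3, needed to form meiotic double-strand breaks, was at 2.47 and 3.57 CPM against 0.374 to 0.703 (log2 2.55, SE 0.331, edgeR adjusted p = 0.000399). HEI10, a ligase that marks crossovers, was at 3.72 and 4.17 CPM against 0.184 to 1.14 (log2 3.37, SE 0.476, adjusted p = 0.000647). ASY3, a protein of the meiotic chromosome axis, fell instead, with 2.88 and 3.02 CPM against 5.11 to 5.84 (log2 -0.89, adjusted p = 0.0119). NBS1 of the double-strand break sensor rose by 1.61 (adjusted p = 0.00947), and HPY2, the SUMO ligase of the complex that holds MIM, by 1.22 (adjusted p = 0.00915). HEI10 overlaps MRD1 on the opposite strand, which rose as well (log2 4.01, adjusted p = 0.0497), though only to 0.264 and 0.604 CPM in ivd1-2. HEI10 was apart above the others in all 6 conditions, 0 h included.

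Of the 15 genes chosen for DNA replication and the cell cycle none passed, where 1.05% of all genes did, and their median was 0.02. By unadjusted p under 0.05 there was 1. PCNA2, the sliding clamp of replication, was at 3.53 and 4.49 CPM against 2.57 to 4.28 (log2 0.19, edgeR adjusted p = 0.899). MCM3, a subunit of the replicative helicase, was at 1.73 and 1.96 CPM against 2.00 to 5.53 (log2 -1.10, adjusted p = 0.595). CYCB1;1, a mitotic cyclin, was at 0.240 and 0.633 CPM against 0.416 to 0.735 (log2 -0.35, adjusted p = 0.932). Transcripts that mark dividing cells were thus at a few CPM or less in all 6 libraries.

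Of 22 genes annotated as chromatin remodeling factors 3 rose: CHR1, known as DDM1 for its part in DNA methylation (log2 1.97, edgeR adjusted p = 0.00847), CHR18 (0.88, 0.0165) and CHR17 (0.72, 0.0399). CHR1 was at 0.978 and 1.2 CPM against 0.245 to 0.374, and the median of the 22 was 0.15. HD2C, a plant histone deacetylase, was at 35.1 and 36.9 CPM against 20.6 to 22.9 (log2 0.75, adjusted p = 0.00289). Of 6 importin alpha genes, which carry proteins into the nucleus, IMPA-6 and MOS6 rose, the latter at 29.5 and 33.0 CPM against 16.6 to 19.9 (log2 0.82, adjusted p = 0.000647). Of 24 nuclear pore genes MOS7 (log2 0.86) and AT3G57350 (log2 1.09) rose, where 0.684% of all genes did, and 13 lay apart above the others and 2 below, where 17.2% and 15.5% of all genes did.

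2 more families showed rises in part of their members. Among 11 phosphofructokinase family genes AT1G20950 and AT1G12000 rose (log2 1.13 and 0.99, edgeR adjusted p = 0.00915 and 0.00956), and the median was 0.05. Among 12 TCP-1/cpn60 chaperonin genes, which fold proteins in cytosol and plastid, AT5G16070 and AT3G02530 rose (log2 0.90 and 0.54, adjusted p = 0.0294 and 0.0186). All 12 were higher in ivd1-2, where 51.8% of all genes were, and 11 lay apart above the others, where 17.2% did, with a median of 0.38.

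The 300 bases upstream of the annotated start were read from RefSeq TAIR10.1 for all tested genes with an annotation, to describe what the rises and falls share beyond their levels. The site II element (TGGGCC or TGGGCT, either strand), known from promoters of PCNA and ribosomal protein genes, was present in 64 of the 133 rises (48.1%), in 15 of the 72 falls (20.8%) and in 4679 of all 19322 (24.2%). The E2F site (TTCCCGC or TTGGCGC, either strand) was present in 9 rises (6.77%), 1 fall (1.39%) and 2.13% of all. The telo box (AAACCCTA, either strand) was in 8.27% of the rises and 4.25% of all, while the W-box (TTGACC or TTGACT) was in 30.8% and 31.9%. Also searched was the abscisate response element, in 11.3% of the rises, 4.17% of the falls and 8.07% of all. It was thus not more frequent among the falls than among all genes. In the same order, the G-box was in 10.5%, 4.17% and 8.14%. The SOG1 motif was in 9.02%, 8.33% and 10.7%, and the evening element in 9.02%, 4.17% and 5.81%. All these shares describe letters in a window, and neither the elements nor the shares were tested. Of the 14 rises that passed in all 6 reduced fits, 9 hold a site II element and 5 do not (emb2411, AT4G24610, APC6, HEI10 and MEI1). 4 of the 9 are shown 5′ to 3′ on the gene's strand, with site II elements in capitals:

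PRD3, chr1:248741-249040, + strand: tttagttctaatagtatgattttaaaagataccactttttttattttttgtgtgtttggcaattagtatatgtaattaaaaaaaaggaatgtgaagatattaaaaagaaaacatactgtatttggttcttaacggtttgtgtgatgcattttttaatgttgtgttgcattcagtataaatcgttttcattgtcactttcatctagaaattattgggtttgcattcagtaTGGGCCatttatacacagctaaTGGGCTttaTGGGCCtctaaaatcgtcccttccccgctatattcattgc
AT1G06590, chr1:2024750-2025049, - strand: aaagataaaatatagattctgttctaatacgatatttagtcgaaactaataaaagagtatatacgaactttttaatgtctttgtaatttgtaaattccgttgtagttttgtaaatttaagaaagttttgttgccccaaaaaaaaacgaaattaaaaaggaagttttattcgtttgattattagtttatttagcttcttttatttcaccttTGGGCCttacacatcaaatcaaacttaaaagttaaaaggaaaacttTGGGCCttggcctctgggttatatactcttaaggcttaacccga
MOS6, chr4:953691-953990, - strand: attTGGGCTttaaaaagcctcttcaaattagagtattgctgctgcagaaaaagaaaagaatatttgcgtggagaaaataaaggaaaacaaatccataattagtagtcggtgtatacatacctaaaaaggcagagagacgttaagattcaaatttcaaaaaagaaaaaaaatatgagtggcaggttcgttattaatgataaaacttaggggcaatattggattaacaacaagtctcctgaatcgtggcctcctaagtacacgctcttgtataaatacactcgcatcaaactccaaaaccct
AT5G14140, chr5:4561149-4561448, + strand: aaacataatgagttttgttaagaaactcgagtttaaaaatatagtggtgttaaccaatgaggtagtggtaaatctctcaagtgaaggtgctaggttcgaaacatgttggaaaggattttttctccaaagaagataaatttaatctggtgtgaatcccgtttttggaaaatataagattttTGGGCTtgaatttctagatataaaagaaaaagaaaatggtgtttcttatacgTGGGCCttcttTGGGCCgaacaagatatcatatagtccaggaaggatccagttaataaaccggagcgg

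In PRD3, AT1G06590 and AT5G14140 all elements stand in the part of the window nearest the start, while the 1 element of MOS6 stands at its far end.

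Among the falls after MLO3 and IVD, 3 of the 12 largest are genes of abscisate and water stress. RD29A, a desiccation- and abscisate-induced gene, was at 14.5 and 25.5 CPM in ivd1-2, 76.0 and 87.9 in WT and 66.9 and 68.3 in hml1-2 (log2 -1.90, SE 0.336, edgeR adjusted p = 0.00614). Its neighbour RD29B was at 1.511 and 2.1 CPM against 7.156 to 9.997 (log2 -2.18, SE 0.428, adjusted p = 0.0133). CYP707A2, an abscisate 8′-hydroxylase that breaks the hormone down, was at 1.01 and 1.58 CPM against 3.99 to 6.69 (log2 -1.97, adjusted p = 0.0109). In all 3 both ivd1-2 libraries were below the lowest other library, and each passed in 4 or 5 of the reduced fits.

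The list of abscisate genes, which does not hold CYP707A2, had 24 members measured. Of these RD29A and RD29B fell and none rose, where 0.37% of all genes fell and 0.684% rose. The median of the 24 was -0.35. 12 of the 24 lay apart below the others and 2 apart above, where 15.5% and 17.2% of all genes did. COR15A, a cold- and drought-induced plastid protein, was at 12.0 and 21.3 CPM against 39.8 to 68.2 (log2 -1.75, edgeR adjusted p = 0.251). NCED3, the enzyme that limits abscisate synthesis under drought, was at 12.2 and 20.9 CPM against 25.35 to 36.01 (log2 -0.90, adjusted p = 0.287). RAB18, another abscisate-induced gene, was at 79.0 and 155.2 CPM against 101.8 to 128.4 (log2 0.03), so its duplicates lay on both sides of the others. Without the first ivd1-2 library 1 of the 24 passed, and without the second none.

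RD29A was not lower in ivd1-2 throughout. At 0 h it was at 3.93 and 4.84 CPM in ivd1-2 and 2.29 to 3.56 in the others, so ivd1-2 lay above them. After 6 h of darkness it was at 240.3 and 300.5 against 499 to 751.9, and after 48 h at 100.3 and 154.5 against 133.6 to 507.1. It lay apart below the others at 6, 24 and 72 h of darkness and in light, and overlapped them at 48 h.

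The remaining falls of the 12 came from varied pathways. PAP85, a vicilin-like seed storage protein gene, was at 0.719 and 0.768 CPM against 4.41 to 6.61 (log2 -2.89, SE 0.644, edgeR adjusted p = 0.0309). ROD1, which moves phosphocholine between membrane lipids, was at 34.3 and 37.2 CPM against 82.5 to 91.9 (log2 -1.31, adjusted p = 0.015). SULTR3;1, a sulfate transporter, was at 5.96 and 6.57 CPM against 12.7 to 17.5 (log2 -1.24, adjusted p = 0.0488). PAP85 and SULTR3;1 passed in none of the reduced fits and ROD1 in 1. AT5G52070, an Agenet domain gene, AT5G26622, a beta-galactosidase related gene, AT3G57790, a pectin lyase-like gene, and AT2G03470 fell by 1.84, 1.52, 1.32 and 1.33, with adjusted p of 0.0022, 6.16e-05, 0.000399 and 0.00947. AT5G52070 overlaps another gene on its strand.

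AT2G03470 carries an ELM2 domain, found in proteins that work with histone deacetylases, and 3 of 5 genes with this annotation fell, a family picked after its values were seen, where 0.37% of all genes fell. AT1G13880 was at 12.8 and 14.4 CPM against 29.7 to 33.5 (log2 -1.21, SE 0.137, edgeR adjusted p = 7.85e-05) and passed in all 6 reduced fits. AT1G26580 was at 356.7 and 381.4 CPM against 553.6 to 707.4 (log2 -0.80, adjusted p = 0.0354). AT2G46040 was higher without passing (log2 0.60, adjusted p = 0.545), and AT4G11400 was under 0.2 CPM in every library.

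A further 3 falls are given that were chosen after their values were seen. FRO3, a ferric reductase of the mitochondrion whose gene overlaps another on the opposite strand, was at 52.3 and 59.3 CPM against 109.6 to 135.8 (log2 -1.15, edgeR adjusted p = 0.00735). LST8-1, a subunit of the TOR kinase complex, was at 50.8 and 52.2 CPM against 68.1 to 71.6, a small but tight difference (log2 -0.43, SE 0.0841, adjusted p = 0.0119). AT1G71250, a GDSL lipase gene, had 2 counts in ivd1-2 against 161 in the others, a ratio of 2.16% of their level with an exact 95% interval of 0.259 to 7.92% that covers counting error only.

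Pathways of photosynthesis, starvation and defence held few or no calls. Only 1.05% of all genes passed, so lists of this length would hold few in any case. Of 31 light-harvesting and photosystem genes none passed, and the median was -0.23. Only 3 of the 31 were higher in ivd1-2, where 51.8% of all genes were. 15 lay apart below the others and none above, where 15.5% and 17.2% of all genes did. Counts of near-identical copies such as LHCB1 and LHCB2 are less certain. None of 22 dark and sugar starvation genes, 34 autophagy genes, 20 senescence genes or 18 Calvin cycle genes passed, with medians of -0.14, -0.07, 0 and -0.04. 17 of 17 jasmonate genes were higher in ivd1-2, with a median of 0.49, yet none passed, and 3 lay apart above the others, a share close to the 17.2% of all genes. The 22 salicylate defence genes averaged 0.350 and 2.12 log2 CPM in the ivd1-2 libraries, 1.49 and 0.508 in WT, and 2.13 and 1.27 in hml1-2, so duplicates differed within every genotype and none passed.

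In chlorophyll breakdown 1 of 9 genes rose, where 0.684% of all genes did. CLH1, a chlorophyllase, was at 2.85 and 5.54 CPM in ivd1-2, 0.184 and 0.333 in WT and 0.286 and 1.60 in hml1-2 (log2 3.10, SE 0.733, edgeR adjusted p = 0.0408). ivd1-2 was above all others, but the call was lost in 5 of the 6 reduced fits and the difference was -2.04 at 48 h (adjusted p = 0.273). PAO and PPH, the enzymes of the senescence route, did not pass (log2 -0.30 and -0.10).

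**Figure D4:**
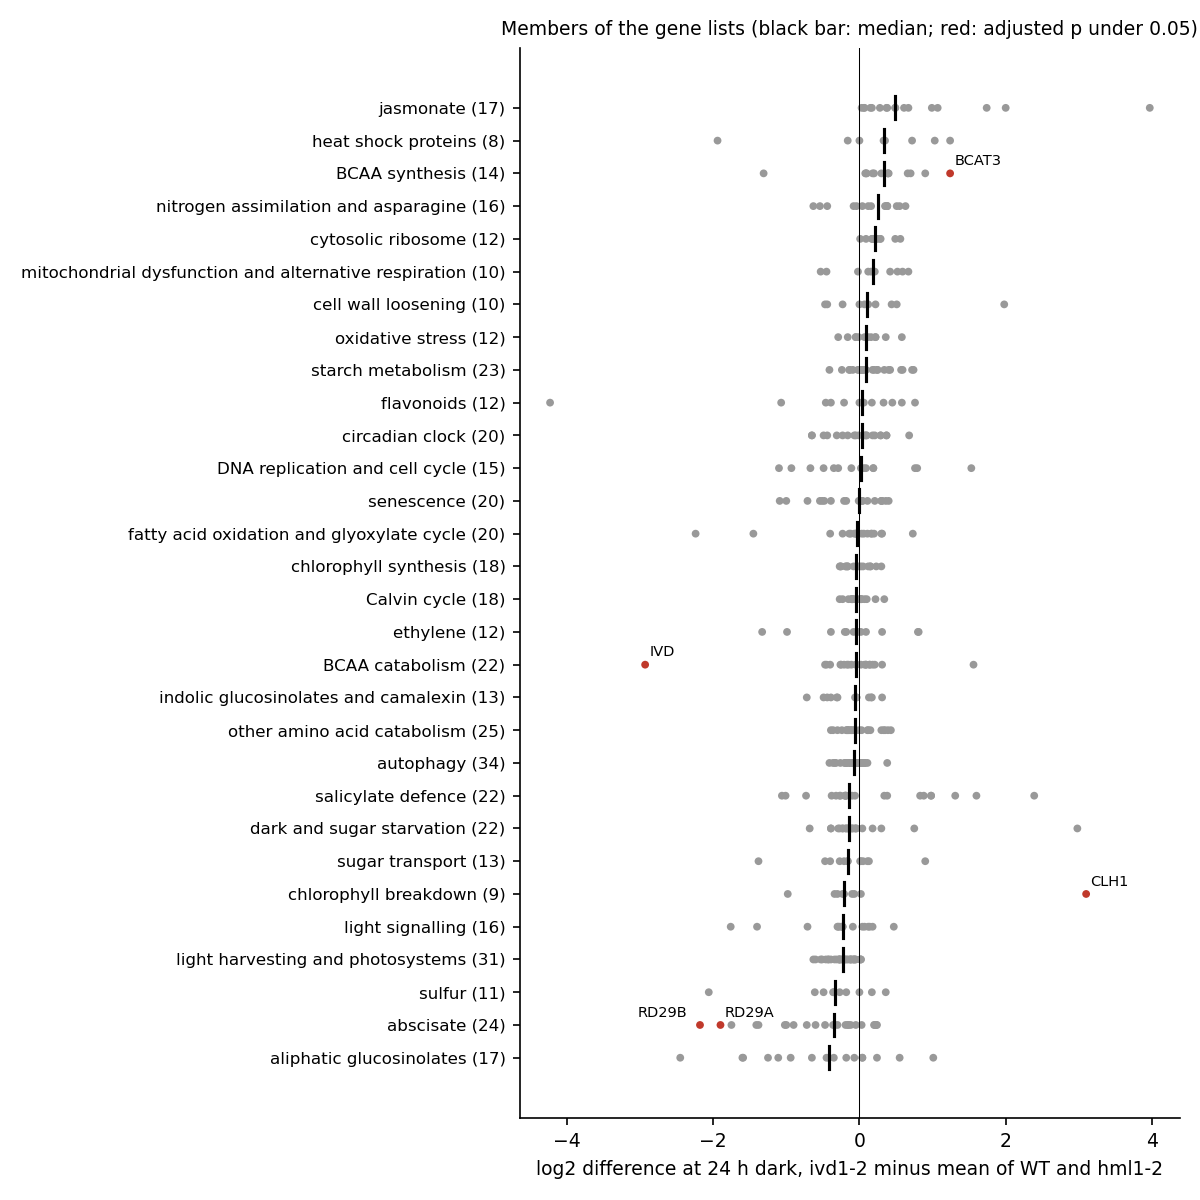
log2 difference at 24 h of darkness of every measured member of the gene lists (grey or red points, number of members in brackets), with the list's median as a black bar. The 5 members that passed, BCAT3 and CLH1 above 0 and IVD, RD29A and RD29B below, are named.

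The same comparison in the other conditions takes its levels from other libraries, which enter the one at 24 h only through the shared fit and its estimate of the spread. It held 1 gene at 0 h (0.00514% of those tested), 3 after 6 h (0.0154%), 986 after 48 h (5.07%), 5826 after 72 h of darkness (29.9%) and 1 after 72 h in light (0.00514%). At 48 h 132 of the 133 rises were higher and 115 passed (86.5%, where 2.85% of all genes passed as higher), and all 72 falls were lower and 64 passed (88.9%, where 2.22% passed as lower). At 72 h of darkness 121 rises and 67 falls passed in the same direction, where 16.5% of all genes passed as higher and 13.5% as lower. No gene of the 205 passed in the opposite direction in any of the other 5 conditions. CLH1 was the 1 rise that was lower at 48 h.

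At 6 h, when 41.5% of all genes tested were higher in ivd1-2, 82 of the 133 rises were higher and none passed, and 66 of the 72 falls were lower and 2 passed, IVD and MLO3 (0.0103% of all genes passed as lower). The median difference of the rises started at 0.03 (0 h) and 0.12 (6 h), was 1.07, 1.13 and 1.24 at the 3 later dark times, and was -0.05 in light. That of the falls was 0 and -0.31, then -0.93, -1.04 and -1.33, and -0.02 in light. The values at 24 h chose these genes, so their size there is a description. The change of the difference was tested directly: from 6 to 24 h and from 24 to 48 h no gene passed in edgeR's test, although 1506 and 430 genes had an unadjusted p below 0.05, while DESeq2 called 74 higher and 37 lower for the first step, and none higher and 16 lower for the second. Values at 72 h of darkness rest partly on the first ivd1-2 library, which differs from its duplicate, for example in mean log2 CPM of salicylate defence genes (4.80 and 0.953). Other duplicates split in these genes too, such as hml1-2 at 0 h (5.87 and 0.620).

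**Figure D5:**
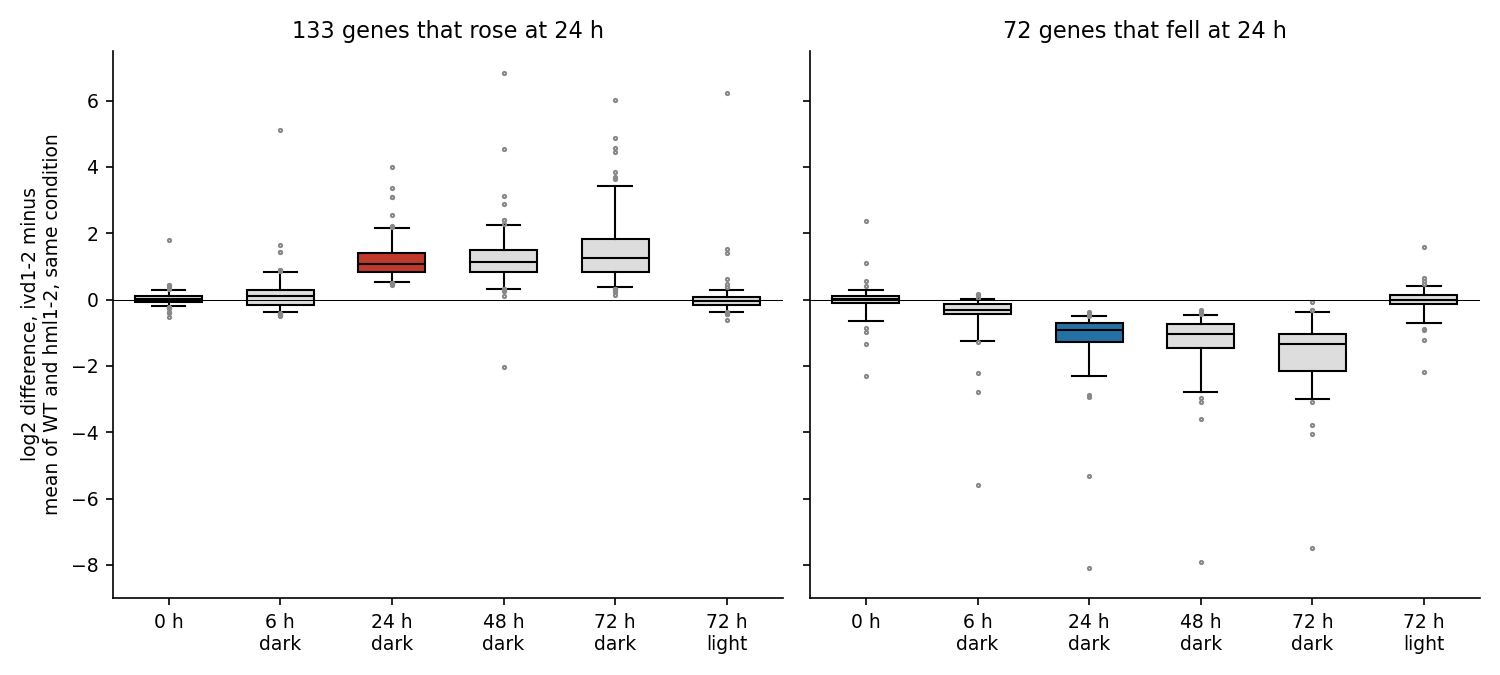
log2 difference of ivd1-2 from the mean of WT and hml1-2 in each of the 6 conditions for the 133 rises (left) and 72 falls (right) at 24 h; boxes span the quartiles, whiskers the 5th to 95th percentile, and the coloured box is the time at which the genes were chosen. Medians lie near 0 at 0 h and in light and stay away from 0 at 48 and 72 h of darkness.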

How the data were processed

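Reads per gene were counted in 36 libraries of 18 groups, 2 in each, of which 6 libraries (24 h of darkness) enter the comparison and the rest its estimate of the spread. The authors deposited raw counts per gene with no normalization, and the deposited count files name no strand setting: the setting used for strand is not given. The build TAIR10 and the tools HTSeq (no version), TopHat 1.4.1, Trimmomatic 0.30, Cuffdiff 2.1.1 and SAMtools 0.1.19 are as listed in the submitters' processing notes. Rows for reads outside genes (0.97 to 1.17% at 24 h) or shared between genes (2 to 2.3%) were left out.

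In R 4.3.3, genes were kept by filterByExpr (minimum count 10, minimum total 15), which left 19457 of 28774 genes, and libraries were scaled by TMM with factors of 0.961 to 1.02 at 24 h. The quasi-likelihood test of edgeR 4.0.16, with 1 coefficient per group and 18 residual degrees of freedom, compared ivd1-2 with the mean of WT and hml1-2, and p was adjusted by Benjamini-Hochberg over the 19457 genes. The test was checked on simulated counts with known changes in genes averaging at least 5 CPM, drawn with the same random spread setting for every gene. It was therefore not checked for genes at lower levels or for duplicates of unequal spread. Levels are CPM, and a standard error (SE) is the log2 difference divided by the root of the F statistic. The genes described were IVD, HML1, up to 4 passing members of each list, the 5 protein-coding genes on each side of IVD, and MLO3, ILA and AT5G11330. To these came the 12 largest rises and falls among genes that passed and lay apart from the 4 others. Such genes also had to average at least 5 CPM on the higher side. The comparison, these genes and the gene lists were chosen with earlier results of these data known, and genes said to be chosen after their values were seen fall outside that rule. Names and sequences come from RefSeq TAIR10.1, which matched 28009 locus codes. Depth at 24 h was 25033762 to 49398596 counts, which limits genes at a few CPM most. Alternatives were DESeq2 1.42.0, other filters and scalings, other sets of libraries and a replicate term.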

Additional observations from a re-analysis of the deposited data

Results flagged for a closer look

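In 6 of the genes described, both ivd1-2 libraries lay on 1 side of all 4 others at 24 h of darkness and on the opposite side of all 4 in another condition. The log2 difference of EHD2, an endocytic traffic gene that rose at 24 h, was -0.53 at 0 h and -0.46 at 6 h, and its change from 6 to 24 h did not pass in edgeR's test (adjusted p = 0.114). RD29A, which fell at 24 h, was at 0.55 at 0 h. After 72 h in light, AT2G03470 was at 0.18, AT3G57790 at 0.14 and AT3G45260 at 0.28, each having fallen at 24 h, and BCAT3, which rose, was at -0.37. None of these opposite differences passed in its own condition (edgeR adjusted p = 0.631 for EHD2 at 6 h). At 24 h alone, 17.2% of all genes lay apart above the others and 15.5% apart below. How many of all genes change side between conditions was not counted, so these cases are not shown to be unusual. The differences at 0 h and in light were not tested against those at 24 h.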

How the results depend on the processing

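The 205 genes of the comparison kept their direction under every alternative in which they were tested, while their number moved with the tool, the filter and the libraries fitted. The median log2 difference of all genes stayed between 0 and 0.03. With DESeq2 290 rose and 251 fell, 204 of the 205 among them. DESeq2 also gave 177 and 154 against WT, 100 and 89 against hml1-2, 8 higher in hml1-2 than in WT, 74 and 37 for 24 h minus 6 h, and 16 lower for 48 h minus 24 h. Fitting WT and hml1-2 as 1 group of 4 gave 520 and 503, with 192 of the 205. Fitting only the groups compared kept 101 of the 205 and gave 0 and 3 genes against WT, 0 and 2 against hml1-2, 1 lower in hml1-2 than in WT, and 32 and 30 for 24 h minus 6 h. Leaving the first ivd1-2 library of 72 h of darkness out of the fit, a choice made after seeing the data, gave 233 and 132, then 122 and 93 against WT, 45 and 41 against hml1-2, and 11 and 1 for 24 h minus 6 h. With no filter on low counts 1 gene was lower in hml1-2 than in WT. With DESeq2's size factors in edgeR that number was also 1, and 21 genes were lower than in hml1-2, against 23 with a mean of at least 5 CPM. The cause of these shifts was not tested.

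Libraries that share a replicate number did not deviate together in every pair of genotypes (correlations of 0.0332, 0.105 and 0.392), so the numbers were not taken as a pairing. With a replicate block the comparison gave 291 and 187, all 205 among them, 151 and 131 against WT, 56 and 34 against hml1-2, and 16 and 3 for 24 h minus 6 h.

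Leaving out 1 library at a time gave 18 to 66 rises and 10 to 41 falls. It gave 2 to 13 rises and 9 to 13 falls against WT, 0 to 5 and 4 to 6 against hml1-2, 0 higher and 1 lower in hml1-2 than in WT, 0 to 1 in each direction for 24 h minus 6 h, and 0 for 48 h minus 24 h. Among single genes, 2 that had not passed changed sign in these fits: the AT3G45400 log2 difference ran from -0.16 to 0.06, with 0.02 without the second hml1-2 library and 0.06 without the first of ivd1-2. The AT3G45330 log2 difference ran from -1.63 (without the second ivd1-2 library) to 2.7. 43 of the 205 genes averaged under 5 CPM, where depth limits precision most.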
